A study of Mus musculus with 6 samples.

Results

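The genes described here are the angiogenic ligands Vegfa, Vegfb, Vegfc, Pgf, Angpt1, Angpt2, Angptl2 and Angptl4 and the receptor Flt1, chosen by name from the deposited expression table. Of these 9 genes, 8 had a row among the 29587 rows of the table, and Vegfc was not analysed here. The old group was 3 libraries of apoptotic osteoblasts from old mice, and the young group was 3 libraries of apoptotic osteoblasts from young mice. The labels give the age only as old or young, name no strain and enter the genotype as none. In both groups the cells had grown out of bone pieces, were passaged as bone marrow mesenchymal stem cells, were put in osteogenic medium, and were then killed with ultraviolet light. Whether each library stands for its own animal or culture is not in the labels, so every p-value rests on the scatter among these 6 libraries, part of which may be technical.

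Vascular endothelial growth factors (VEGFs) are secreted proteins that make endothelial cells divide, survive and migrate, and bone-forming cells are a known source of them, which links bone formation to vessel growth. Vegfa signals mainly through the receptor Kdr. Flt1, a receptor of weak kinase activity, binds Vegfa, Vegfb and Pgf, and its soluble form traps these ligands. The angiopoietins act on vessels through the receptor Tek, with Angpt1 as its agonist and Angpt2 as a context-dependent antagonist. Angptl2 and Angptl4 are related in sequence to the angiopoietins but do not bind Tek, and Angptl4 is best known as an inhibitor of lipoprotein lipase.

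Values are RPKM, in which read numbers are divided by the length of the gene and by library size, so levels of different genes can be set side by side. Libraries held 64881180 to 84535939 reads, recovered from the RPKM values. Young replicate 1 stood apart from the other libraries, with a correlation of 0.949 and 0.962 with young replicates 2 and 3, which correlated at 0.996 with each other (Pearson's r across genes on the log2 scale; genes are not independent replicates). The osteoblast label was checked on 10 markers, of which Col1a1 was at 1490 to 1550 RPKM in old and 1060 to 1830 RPKM in young libraries, while Alpl and Bglap stayed under 1 RPKM in all 6. Where a call, a direction or a value named below depends on young replicate 1, the value without that library is given as well.

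The 250 bases before the annotated start of 3 genes of the VEGF axis are shown so that their regulatory letters can be compared between Flt1 and Vegfa, whose old and young libraries did not overlap, and Vegfb, whose libraries did. They come from RefSeq (GRCm38.p6), run 5′ to 3′ on the gene's strand, and lie at chr5:147726012-147726261 for Flt1, chr17:46032378-46032627 for Vegfa and chr19:6987652-6987901 for Vegfb, each on the minus strand. Capitals mark the searched motifs on either strand.
Flt1: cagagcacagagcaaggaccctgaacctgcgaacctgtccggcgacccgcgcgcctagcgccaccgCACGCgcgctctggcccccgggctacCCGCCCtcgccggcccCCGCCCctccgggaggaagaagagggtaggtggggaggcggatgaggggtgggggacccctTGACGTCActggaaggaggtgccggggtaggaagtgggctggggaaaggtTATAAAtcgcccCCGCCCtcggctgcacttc
Vegfa: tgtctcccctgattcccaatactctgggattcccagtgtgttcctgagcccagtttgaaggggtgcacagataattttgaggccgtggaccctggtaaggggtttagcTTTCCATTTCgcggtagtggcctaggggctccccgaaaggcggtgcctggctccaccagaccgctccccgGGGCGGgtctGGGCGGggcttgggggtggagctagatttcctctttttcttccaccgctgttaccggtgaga
Vegfb: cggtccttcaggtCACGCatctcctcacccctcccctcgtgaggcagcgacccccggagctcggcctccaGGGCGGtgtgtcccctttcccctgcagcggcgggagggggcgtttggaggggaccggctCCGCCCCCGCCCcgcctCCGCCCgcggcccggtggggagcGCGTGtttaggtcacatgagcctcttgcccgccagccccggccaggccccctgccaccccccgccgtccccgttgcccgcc

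The motifs searched were the hypoxia-inducible factor cores ACGTG and GCGTG, the cAMP response element TGACGTCA, the AP-1 site TGANTCA, the GC box GGGCGG, the TATA box TATAAA and the interferon-stimulated response element. No match to one motif overlapped a match to another. Flt1 held 1 TATA box, ending 26 bases before the start, and 1 cAMP response element, ending 74 bases before it. Among 32851 windows of the same length, 12.4% held the TATA letters and 1.55% the cAMP response letters. Vegfa held 1 interferon-stimulated response element, ending 133 bases before the start, which 2.98% of windows held. Vegfb had 2 matches to GCGTG and Flt1 had 1, a motif in 28.2% of windows, and ACGTG, in 16.6% of windows, was matched in neither of these nor in Vegfa. The GC box, in 32.7% of windows, was found 3 times in Flt1, 2 times in Vegfa and 4 times in Vegfb, and the AP-1 letters, in 6.75% of windows, were in none of them. Angptl2, whose libraries overlapped as well, held 2 GC boxes and no other match. A match describes letters only, and bases further upstream were not searched. Of the 8 members in the table, 5 had an entry in the promoter table.

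Apoptotic osteoblasts carried VEGF ligand transcripts and Flt1, but almost no transcripts of the listed angiopoietins Angpt1 and Angpt2. Vegfa was the highest member, at 29 ± 1.37 RPKM in old and 22.5 ± 2.97 RPKM in young libraries (SD, n = 3 each), above 93.2% of the rows of the table. Vegfb, at 9.43 ± 0.122 and 8.62 ± 2.15 RPKM, and Angptl2, at 8.55 ± 0.882 and 7.28 ± 3.61 RPKM, came next in old and young libraries (SD, n = 3 each), and these neighbours in the order overlapped each other in both groups. Flt1 followed at 4.99 ± 0.089 RPKM in old and 3.48 ± 0.13 RPKM in young libraries. These 4 members reached 1 RPKM in every library and were tested. Pgf, Angpt2, Angpt1 and Angptl4 stayed under 1 RPKM in every library and were below the expression filter.

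**Figure D1:**
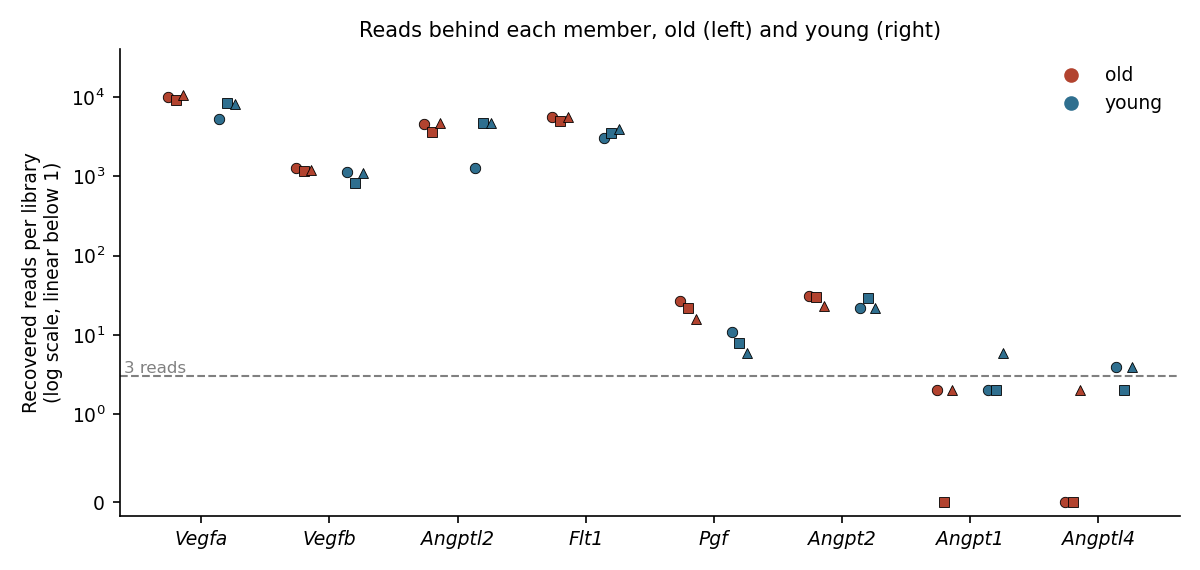
Reads recovered for each of the 8 members in each library, on a log axis that is linear below 1, with old libraries on the left and young libraries on the right of each gene and a dashed line at 3 reads. Vegfa, Vegfb, Angptl2 and Flt1 had at least 823 reads in each library, whereas Angpt1 and Angptl4 lay between 0 and 6 reads.

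Vegfa, the main ligand of vessel growth, was at 27.8, 28.7 and 30.5 RPKM in the old libraries and at 19.2, 25 and 23.2 RPKM in the young libraries. Every old library was above every young one. Old minus young was 0.36 ± 0.12 (SE) in log2(RPKM + 1). All log2 fold changes given here are on that scale, except in alternative settings that add 0.1 or 0.5 instead, or use voom. With a limma adjusted p = 0.315 and an unadjusted p = 0.0214, the difference did not pass the threshold of 0.05 on the adjusted p. Young replicate 1 was the lowest library, at 0.797 times the mean of young replicates 2 and 3. Without it the log2 fold change was 0.26 and the gene was called higher in old (limma adjusted p = 0.0231). Vegfa lies on chromosome 17 (46016993 to 46032369, mm10), and its value sums over its splice forms.

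Flt1 varied little within each group. Its values were 4.97, 4.91 and 5.08 RPKM in the old libraries and 3.52, 3.33 and 3.58 RPKM in the young libraries, a coefficient of variation of 1.78% in old and 3.73% in young. The groups were separate, and old libraries averaged 1.43 times the young level. The log2 fold change was 0.42 ± 0.08 (SE, limma adjusted p = 0.0763, unadjusted p = 0.00161). By unadjusted p Flt1 ranked at place 252 of 12015 tested genes. Young replicate 1 lay at 1.02 times the mean of young replicates 2 and 3, and without it the log2 fold change was 0.43 (limma adjusted p = 0.00467). After each library's trend on gene length was removed the log2 fold change was again 0.42 but with an SE of 0.17 (limma adjusted p = 0.352).

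Flt1 spans chromosome 5 from 147561604 to 147726011 (mm10), and its deposited gene length of 13504 bases was the longest among the members. The exon list behind that length includes all 30 exons of the long coding transcript and all 13 exons of a shorter coding transcript that starts in the same region and ends at 147635159 (GENCODE vM21). The shorter transcript lacks the later exons of the long one. The deposited value therefore sums over both, and membrane-bound and soluble forms were not separated.

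**Figure D2:**
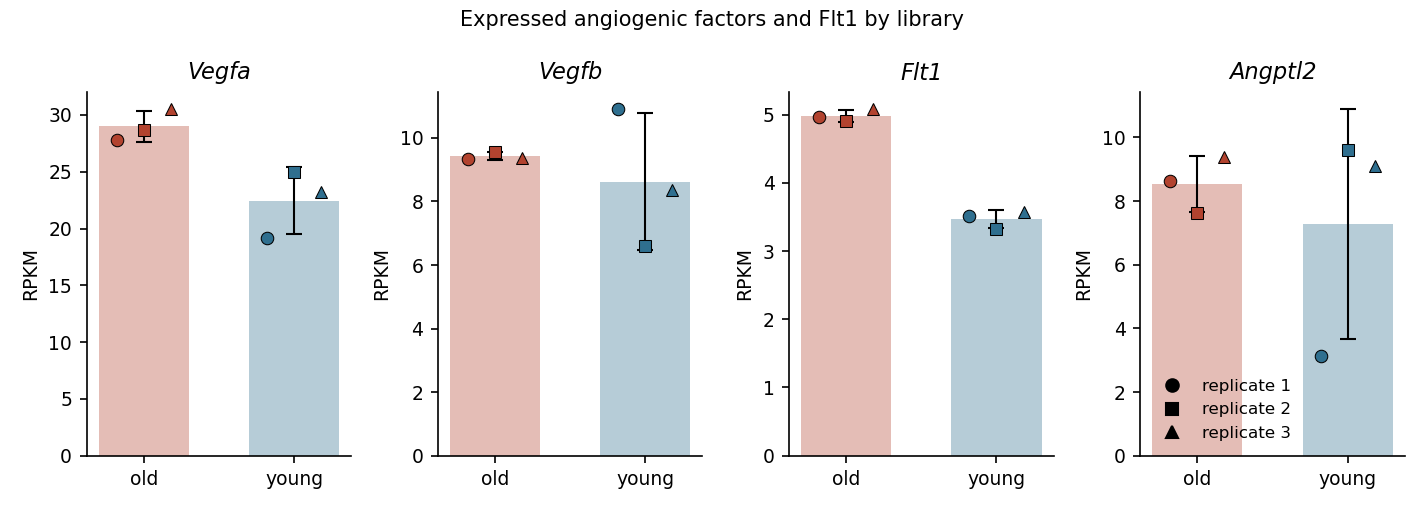
RPKM of Vegfa, Vegfb, Flt1 and Angptl2 in each library, with bars for group means, whiskers for the SD (n = 3) and a symbol for each replicate, old on the left and young on the right of each panel. Vegfa and Flt1 are higher in all old libraries, and young replicate 1 is the highest library for Vegfb and the lowest for Angptl2.

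Vegfb, a Flt1 ligand linked to fatty acid uptake, was at 9.35, 9.57 and 9.38 RPKM in the old libraries and at 10.9, 6.61 and 8.36 RPKM in the young libraries. The old libraries lay between young replicate 1 and the other two. The log2 fold change of 0.14 ± 0.17 was smaller than its SE (limma adjusted p = 0.926). Without young replicate 1 it was 0.31 (limma adjusted p = 0.0413), and without young replicate 2 it was -0.02 (limma adjusted p = 0.965).

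Angptl2, a secreted glycoprotein known to promote inflammation, was at 8.62, 7.63 and 9.39 RPKM in the old libraries and at 3.12, 9.61 and 9.1 RPKM in the young libraries. Young replicate 1 was at 0.334 times the mean of young replicates 2 and 3, and the groups overlapped. The log2 fold change was 0.32 ± 0.37 (SE, limma adjusted p = 0.919). Without young replicate 1 it was -0.12 (limma adjusted p = 0.303), so the direction for Angptl2 rested on young replicate 1.

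Pgf, the placental ligand of Flt1, was below the filter. It had 27, 22 and 16 reads in the old libraries and 11, 8 and 6 reads in the young libraries, which is 0.202, 0.184 and 0.125 RPKM in old and 0.107, 0.0651 and 0.0457 RPKM in young. The groups did not overlap, and an exact two-sided permutation test of RPKM gave p = 0.1, the smallest value that 3 against 3 libraries allow. In a fit without the filter its log2 fold change was 0.13 ± 0.03 (SE, limma adjusted p = 0.313). Among genes with 1 to 5 reads 77.5 to 79.3% had an even number, so the recovered reads are not independent molecules.

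Angpt2 was at 0.0994, 0.108 and 0.0772 RPKM in old and 0.0919, 0.101 and 0.0719 RPKM in young libraries, and the groups overlapped. Angpt1 had 2, 0 and 2 reads in old and 2, 2 and 6 reads in young libraries. Angptl4 had 0, 0 and 2 reads in old and 4, 2 and 4 reads in young libraries. Both genes were near the floor of 3 reads, which is 0.00834 to 0.0109 RPKM for Angpt1. No difference was detectable there at this depth, and no fold change is given for them. Their RPKM was lower in every old library than in any young one, but libraries of both groups held 2 reads of each gene. In Angpt1 a stretch of 283 exon bases is shared with Gm17473 on the opposite strand, and no other member shared exon bases with another gene of the table.

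None of the 4 tested members was called, where 1.57% of the 12015 tested genes were called by limma at an adjusted p under 0.05, 1.47% as higher and 0.0999% as lower in old. At an unadjusted p under 0.05 there were 2 members, Vegfa and Flt1, against 11.2% of tested genes, and voom on the recovered reads called 0 of the 4. Old libraries lay above all young libraries in 2 of the 4, against 10.6% of tested genes, and below all of them in 0 of the 4, against 10.2%. Without young replicate 1, Vegfa, Vegfb and Flt1 were called higher in old, where 13.2% of tested genes were called higher and 19.4% lower. Down-weighting libraries by their spread called the same 3 members, where 42.2% of tested genes were called, 17.6% as higher and 24.6% as lower. The median log2 fold change of the 4 was 0.34, beside 0.01 over all genes tested, and without young replicate 1 it was 0.28 beside -0.05.

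**Figure D3:**
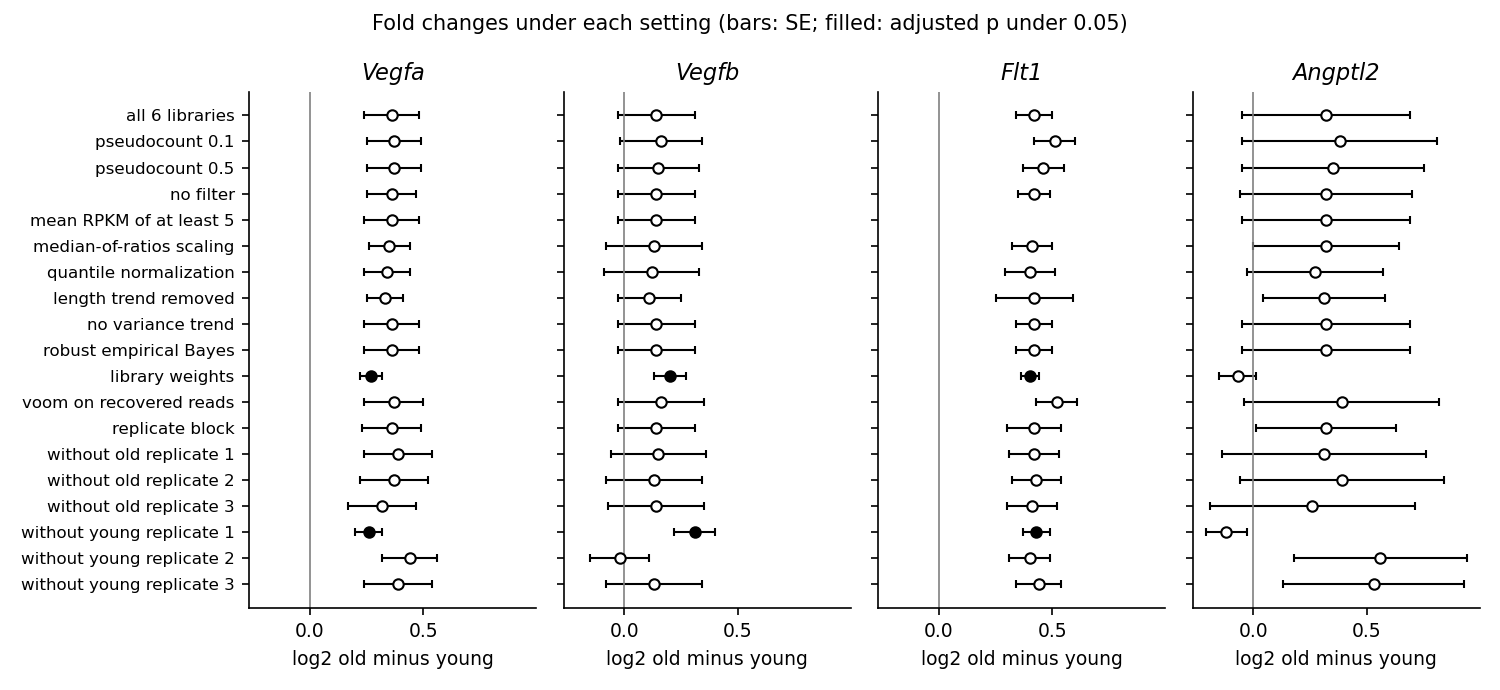
Log2 fold change of old against young for the 4 tested members under each setting, with whiskers for the SE and filled symbols for an adjusted p under 0.05. Flt1 lies between 0.4 and 0.52 in every setting that could be computed, while Angptl2 lies below 0 without young replicate 1 and with library weights. The pseudocount and voom settings are on other log2 scales than the rest.

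Among the VEGF ligands analysed here, which leave out Vegfc, Vegfa was the largest part in both groups. The summed RPKM of Vegfa, Vegfb, Vegfd and Pgf was 40.3, 40.9 and 43 in the old libraries and 32.6, 34.6 and 34.3 in the young libraries. The old libraries were all above the young ones. Vegfa made up 70 ± 0.95% of the sum in old and 66.3 ± 6.82% in young (SD, n = 3 each). Vegfb made up 22.8 ± 0.872% in old and 25.6 ± 7.23% in young (SD, n = 3 each). Young replicate 1 held 58.9% Vegfa and 33.4% Vegfb. Young replicates 2 and 3 held 72.3% and 67.8% Vegfa and 19.1% and 24.4% Vegfb, on both sides of the old means. Vegfd, a lymphatic VEGF outside the listed members, gave 6.75 ± 0.559% in old and 7.82 ± 0.524% in young, and Pgf 0.414 ± 0.11% and 0.217 ± 0.101% in old and young. The RPKM of the 3 Flt1 ligands summed to 7.52, 7.83 and 7.87 times that of Flt1 in old libraries. In young libraries it summed to 8.58, 9.51 and 8.84 times. This ratio was lower in each old library than in any young one. For Vegfa alone the ratio to Flt1 was 5.6, 5.84 and 6 in old and 5.45, 7.51 and 6.49 in young libraries. In that ratio the groups overlapped, with young replicate 1 the lowest library. These sums and ratios are given as descriptions and were not tested.

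**Figure D4:**
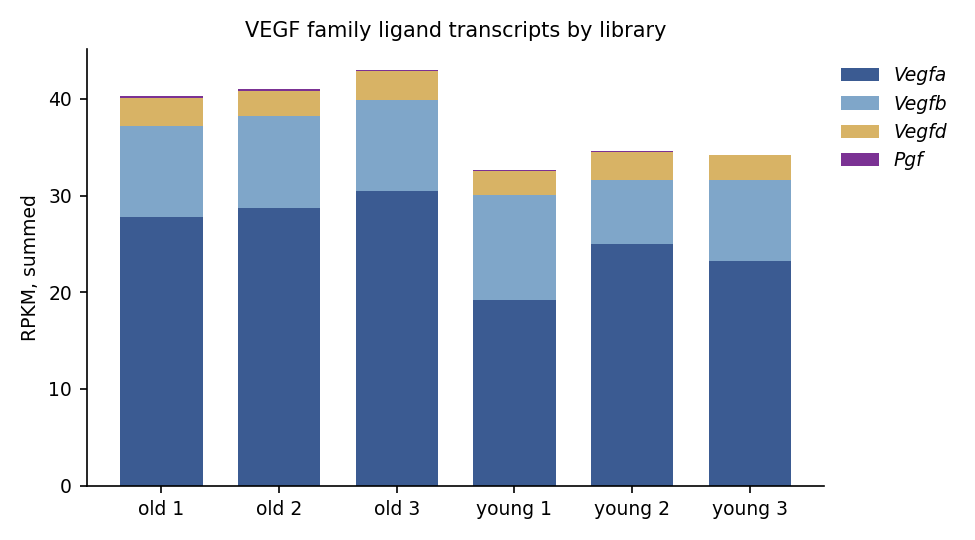
RPKM of Vegfa, Vegfb, Vegfd and Pgf stacked for each library, old libraries on the left and young libraries on the right. The sums reach 40.3 to 43 RPKM in old and 32.6 to 34.6 RPKM in young, and Vegfa is the largest part of each bar.

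Flt1 was present while Kdr, Tek and Flt4, other receptors of endothelial cells, were almost absent. Kdr was at 0.0419, 0.0264 and 0.0411 RPKM in old and 0.0649, 0.02 and 0.0267 RPKM in young libraries. Tek was at 0.00281 to 0.0394 RPKM in old and 0.0131 to 0.0328 RPKM in young, and Flt4, the receptor of lymphatic VEGFs, was listed at 0 in 5 of 6 libraries. All 11 endothelial markers with a row were below the filter, with a summed level of 0.31 to 0.322 RPKM in old and 0.327 to 0.381 RPKM in young, against 4.99 RPKM of Flt1 in old. Kdr and Tek are among these 11. Cdh5 and Cldn5, which define endothelial junctions, were at 0 in 4 and 5 of the 6 libraries. The part of endothelial transcripts in the Flt1 values was not tested. In bulk libraries a larger number of cells that express a gene and more RNA per cell cannot be told apart.

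**Figure D5:**
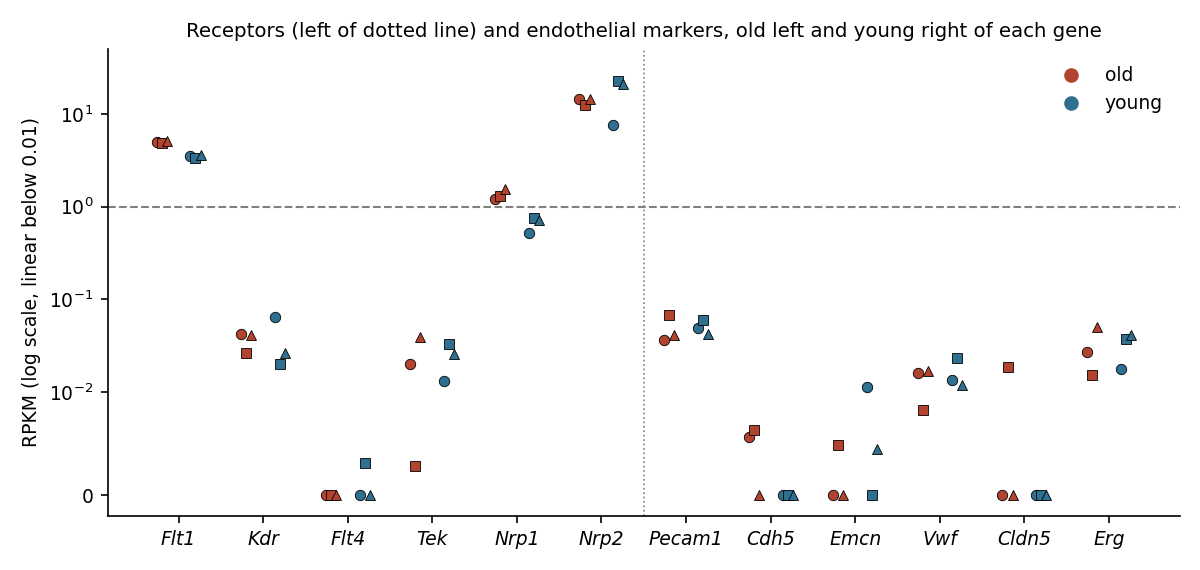
RPKM of Flt1, 5 other receptors or co-receptors and 6 endothelial markers in each library, on a log axis that is linear below 0.01, with old libraries on the left and young libraries on the right of each gene and a dashed line at 1 RPKM. Flt1 and Nrp2 lie above 1 RPKM in all libraries, whereas Kdr, Flt4, Tek and the markers lie below 0.1 RPKM.

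Markers of other cell types were also read. The 7 haematopoietic and macrophage markers had a summed level of 8.54 to 9.99 RPKM in old and 7.95 to 9.22 RPKM in young. Lyz2 gave most of the level. Cd68 was at 0.601 to 1.04 RPKM in old and 0.54 to 1.03 RPKM in young. Csf1r was at 0.36 to 0.521 RPKM in old and 0.383 to 0.618 RPKM in young. Ptprc was at 0 in 4 libraries and Adgre1 at 0 in 5, and Spi1 and Itgam did not exceed 0.0246 RPKM. The 6 pericyte and smooth muscle markers summed to 458 to 523 RPKM in old and 441 to 445 RPKM in young. Most of that sum was Acta2, at 439 to 504 RPKM in old and 423 to 428 RPKM in young. Pdgfrb was at 14.4 to 16.2 RPKM and Cspg4 at 1.96 to 2.41 RPKM over both groups. Rgs5, Des and Mcam stayed under 1 RPKM in all libraries. Of the 3 tested markers, Acta2, Pdgfrb and Cspg4, 0 were called, where 1.57% of all tested genes were. The 5 adipocyte markers with a row summed to 0.103 to 0.148 RPKM in old and 0.064 to 0.108 RPKM in young. Of 8 tested osteoblast markers, Spp1, a secreted matrix protein, was called higher and Sp7, an osteoblast transcription factor, lower in old, where 1.47% of all tested genes were called higher and 0.0999% lower. The Sp7 call was lost without each old library and without young replicate 3. Without young replicate 1, 1 of the 8 was higher and 6 were lower, beside 13.2% and 19.4% of all tested genes. The part of these differences in the values of Vegfa and Flt1 was not tested.

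Nrp1 and Nrp2 are co-receptors of VEGF. Nrp1 was at 1.22, 1.31 and 1.54 RPKM in the old libraries and at 0.521, 0.765 and 0.721 RPKM in the young libraries, without overlap, and differed by 0.50 ± 0.09 on the log2 scale (SE, adjusted p by limma 0.075), and by 0.43 without young replicate 1 (adjusted p by limma 0.00967). Its young libraries were all under 1 RPKM, so Nrp1 could enter the test solely by being higher in old. Nrp2 was at 14.5, 12.6 and 14.6 RPKM in the old libraries and at 7.6, 22.8 and 21 RPKM in the young libraries, which gave -0.15 ± 0.39 on the log2 scale (SE, adjusted p by limma 0.978) and -0.62 without young replicate 1 (limma adjusted p = 0.00363). Of the 9 tested receptors and co-receptors, 0 were called, where 1.57% of all tested genes were. Without young replicate 1, 2 were higher and 2 lower, beside 13.2% and 19.4% of all tested genes. Sdc4, a heparan sulfate proteoglycan, was at 114 ± 6.16 RPKM in old and 84.7 ± 10.1 RPKM in young (SD, n = 3 each, limma adjusted p = 0.215), and was called higher in old without young replicate 1 (limma adjusted p = 0.0103). Itgav and Sdc1 had log2 fold changes of -0.14 and 0.11, and of -0.20 and 0.06 without young replicate 1, with no call.

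No gene was called among the other tested ligands, among the processing enzymes of VEGF-C and VEGF-D, or among genes of oxygen sensing. Of all tested genes 1.57% were called. Of 4 tested VEGF and PDGF ligands outside the members, Pdgfd had the smallest p. It was at 1.46 ± 0.23 RPKM in old and 2 ± 0.584 RPKM in young (SD, n = 3 each, limma adjusted p = 0.706). Without young replicate 1 it was the single one called, as lower, where 19.4% of all tested genes were called lower. Vegfd, Pdgfa and Pdgfc were within 0.11 of 0 on the log2 scale with and without young replicate 1, and the signs of Pdgfa and Pdgfc turned without it. Of 4 tested processing genes, Ctsd was the single one called without young replicate 1, as higher, where 13.2% of all tested genes were. Adamts2, Furin and Pcsk7 were not called. The 5 other angiopoietin and angiopoietin-like genes with a row were all below the filter, with Angpt4 the highest at 0.695 to 0.965 RPKM in old and 0.734 to 0.899 RPKM in young.

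Oxygen-sensing genes control Vegfa through hypoxia-inducible factors. Hif1a, the oxygen-regulated subunit, was at 17.5 ± 2.59 RPKM in old and 17.6 ± 3.53 RPKM in young (SD, n = 3 each, limma adjusted p = 0.999), and differed by -0.15 on the log2 scale without young replicate 1 (limma adjusted p = 0.341). Vhl, which marks that subunit for destruction, was at 4.45 ± 0.444 RPKM in old and 5.15 ± 0.115 RPKM in young (limma adjusted p = 0.615, SD, n = 3 each), and Epas1 stayed below 0.1 RPKM. Of 10 tested genes of this list 0 were called, where 1.57% of all tested genes were, and their median was -0.02 on the log2 scale. Without young replicate 1, 1 was higher and 0 lower, beside 13.2% and 19.4% of all tested genes. Egln2, Hif1an and Tceb1 had log2 fold changes of -0.15, -0.10 and -0.05, and of 0.02, -0.18 and 0.02 without young replicate 1, so the signs of Egln2 and Tceb1 turned on that library.

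Some other secreted factors and inhibitors passed the test. Among 12 tested other angiogenic factors, most of them secreted, Grem1 and Spp1 rose and 0 fell, beside 1.47% and 0.0999% of all tested genes. The list's median was -0.07 on the log2 scale. Grem1, an antagonist of bone morphogenetic proteins that can also bind Kdr, was at 5.06, 4.42 and 5.92 RPKM in old and 1.85, 2.47 and 2.26 RPKM in young libraries (log2 fold change 0.94 ± 0.13, SE, limma adjusted p = 0.024). Its call and that of Spp1, at 732 ± 68.6 RPKM in old and 290 ± 75.9 RPKM in young (SD, n = 3 each, limma adjusted p = 0.0307), were lost without any 1 of the old libraries and of young replicates 2 and 3. Lgals1 was at 1160 ± 33.8 RPKM in old and 848 ± 53.2 RPKM in young (limma adjusted p = 0.142), and Apln, an endothelial peptide, at 1.69 ± 0.153 and 2.4 ± 0.322 RPKM in old and young (limma adjusted p = 0.285, SD, n = 3 each). Without young replicate 1 the calls were Grem1, Spp1 and Lgals1 (limma adjusted p = 0.00257) as higher and Apln (limma adjusted p = 0.00845) as lower, beside 13.2% and 19.4% of all tested genes.

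Of 11 tested genes listed as angiogenesis inhibitors, not all of which act only as inhibitors, Timp3 rose and 0 fell, beside 1.47% and 0.0999% of all tested genes. Timp3, an inhibitor of metalloproteinases that also blocks binding of VEGF to Kdr, was at 59.9, 52.7 and 58 RPKM in old and 30.4, 33 and 29.9 RPKM in young libraries (log2 fold change 0.85 ± 0.09, SE, limma adjusted p = 0.00934). The call needed young replicate 3 and each of the old libraries, and was lost when 1 of them was left out. Thbs1, Col18a1 and Timp2 had log2 fold changes of 0.48, 0.42 and -0.15 and were not called. The values were 0.11, 0.15 and -0.15 without young replicate 1, again with no call. The median of the list was -0.03, and -0.13 without young replicate 1, beside 0.01 and -0.05 over all genes tested. Without that library 1 gene of the list was called higher and 2 were called lower, beside 13.2% and 19.4% of all tested genes.

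Around Angptl4, which was itself near 0 reads, 6 of 13 lipase and PPAR genes were tested. Of these, 1 was called higher and 0 lower, beside 1.47% and 0.0999% of all tested genes. The counts were the same without young replicate 1, beside 13.2% and 19.4% of all tested genes. Pdk4, a kinase that restrains pyruvate oxidation and shares control by PPAR factors with Angptl4, rose to 29.3, 29.4 and 29.8 RPKM in the old libraries, against 14.6, 14.9 and 15.3 RPKM in the young libraries (log2 fold change 0.94 ± 0.08, SE, limma adjusted p = 0.00239). This call held without each of the 6 libraries. Ppard, Plin2 and Cpt1a had log2 fold changes of 0.47, 0.10 and 0.15 and were not called. These values became -0.06, 0.17 and -0.08 without young replicate 1, again with no call, so the directions of Ppard and Cpt1a rested on that library. Lpl, the lipase that Angptl4 inhibits, was at 0 in 3 libraries.

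For each tested member, the 3 genes of most similar pattern over the 6 libraries were found by Pearson's r of log2(RPKM + 1). They share libraries and the difference between groups with it, and r is a description. For Flt1 these were Casp4, an inflammatory caspase (r = 0.998), Aldh3a1, an aldehyde dehydrogenase (r = 0.997), and Ripk2, a kinase downstream of bacterial sensors (r = 0.997), each of them called higher in old. For Vegfa they included P2rx7, an ATP-gated channel, and Cd34, a sialomucin, with r of 0.995 and 0.994 and no call. For Vegfb they were Gatb, Mydgf and Eif1ad (r = 0.999, 0.985 and 0.984) and for Angptl2 Stim2, Akap1 and Hdlbp (r = 0.999 each). Hdlbp was at 31.1 RPKM in young replicate 1, against 81.8 and 75.5 RPKM in young replicates 2 and 3, the same library in which Angptl2 was lowest. Aldh3a1 reached 1 RPKM in old libraries alone and passed the filter through them.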

How the data were processed

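Messenger RNA of 6 libraries was analysed, 3 of apoptotic osteoblasts from old and 3 from young mice. The submitters' processing notes name fastp, STAR, HTSeq and edgeR and the build mm10, without versions. The authors deposited RPKM per gene with exon positions and gene length. Multiplying RPKM by length and library size gave numbers within 0.01 of a whole number for 100% of values, and these are the recovered reads. Whether counting used strand is not given in the sources used here. No library was a copy of another (chi-square per degree of freedom of 9.51 to 483 within groups).

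Limma 3.58.1 in R 4.3.3 modelled log2(RPKM + 1) by group alone, letting the prior variance follow mean expression, over the 12015 genes with at least 1 RPKM in at least 3 libraries. Tests were two-sided, adjusted by Benjamini-Hochberg over all genes tested, and called under 0.05. The script was tested on simulated data. RPKM are not counts, so the main fit used no count model, and voom on the recovered reads was run as an alternative setting. The log2 fold changes understate changes of low genes.

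The members and the gene lists were chosen with earlier results of these data known. Named genes are all members, up to 4 genes of smallest p per list, fixed receptors and regulators, and the 3 genes most like each tested member. One gene that this rule names is not reported here. Receptor Tie1, Vegfc and some other listed genes were not analysed here. There were 18 alternative settings. Same-numbered old and young libraries deviated from their group means with correlations of -0.0257, -0.436 and 0.329, so the numbers were not taken as pairs.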

Additional observations from a re-analysis of the deposited data

How the results depend on the processing

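The number of called members moved from 0 in 2 of 18 alternatives, to 3 with library weights and to 3 without young replicate 1 (0 to 3 over the left-out libraries). With library weights 42.2% of all tested genes were called. The called genes over the whole table numbered 189, against 107 at a mean RPKM of at least 5, 5076 with library weights and 82 with the replicate number as a block, and 80 to 3918 over the left-out libraries. The block called 0 members, and it is no pairing by design. After removal of the trend on gene length old was the higher group in 83.3% of calls, against 93.7% before. That share was 41.7% with library weights and 40.6% without young replicate 1, where more genes were called lower than higher in old. Vegfb reversed to -0.02 without young replicate 2, over a range of -0.02 to 0.31 without each library. Angptl2 reversed to -0.07 with library weights and to -0.12 without young replicate 1, and its range without each library was -0.12 to 0.56. The causes were not tested. Vegfa stayed between 0.26 and 0.44 on the log2 scale and Flt1 between 0.4 and 0.52 in all settings run. For Flt1 the values 0.51, 0.46 and 0.52 came from adding 0.1 or 0.5 to the RPKM and from voom. Those settings are on other scales than log2(RPKM + 1). At a mean RPKM of at least 5 Flt1 was not tested. Pgf, Angpt1, Angpt2 and Angptl4 gave a value in the unfiltered fit alone, and depth limits them, since 3 reads of Angptl4 correspond to 0.0108 to 0.0141 RPKM.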
